A study of Saccharomyces cerevisiae BY4741 with 6 samples.

Results

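The genes described here are those of gluconeogenesis and the glyoxylate cycle in budding yeast, the invertase gene SUC2, and DNA-binding activators of this programme. They were chosen by systematic name: the enzyme genes FBP1, ICL1, MLS1, MDH2 and IDP2, SUC2, and the activator genes CAT8, ADR1 and SIP4. Of these 9 genes, 8 were found among the 5219 genes of the count table and all 8 reached the mean count of 10 needed for testing, among 5186 tested genes. CAT8 was not analysed here. Nascent transcription was measured by NET-seq, which sequences the RNA held by RNA polymerase II, here pulled down through a FLAG tag on its subunit Rpb3. The 6 libraries came from BY4741 yeast with RPB3-3xFLAG, which both strains carry, either with SPP1 replaced by KanMX6 (spp1 deletion) or with SPP1 intact (wild type). Each strain gave 1 library from log-phase glucose culture and 1 each at 15 and 60 min after the cells had been spun down and resuspended in galactose medium. No step of spinning down is described for the glucose cultures, so medium and handling cannot be told apart. Each group thus holds 1 library, with no replicate.

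Gluconeogenesis rebuilds glucose phosphates from smaller carbon compounds, and the glyoxylate cycle feeds it by turning acetyl units into malate and succinate while bypassing the steps of the tricarboxylic acid cycle that release carbon dioxide. In yeast growing on glucose most of these genes are repressed. When glucose is gone, the Snf1 kinase relieves that repression, in part by removing the repressor Mig1, and the activators Cat8, Sip4 and Adr1 act at the promoters. SUC2, which encodes the secreted and cytosolic enzyme that splits sucrose, is a classical gene of glucose repression and takes no part in gluconeogenesis itself. SPP1, the gene deleted here, encodes a subunit of COMPASS, which methylates histone H3.

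Library totals ran from 1162190 to 4167249 counts, and a single count was worth 0.245 to 0.821 CPM, the unit used here for counts relative to library totals scaled by the TMM method. SPP1 itself had 1, 0 and 0 counts in the spp1 deletion libraries from glucose, 15 min and 60 min, and 324, 69 and 131 counts in the wild-type libraries. Levels are relative to each library. Between 15 min and glucose 75.2% of tested genes passed the test, and a shift in the total amount of transcription would not show in such values. The libraries are of whole cultures, so that more transcription per cell and a larger share of transcribing cells cannot be told apart.

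All 8 genes rose at 15 min in galactose. At that time 8 of 8 were higher than in glucose in the test across both strains (quasi-likelihood test in edgeR, p adjusted by Benjamini-Hochberg under 0.05), where 37.1% of all tested genes were higher. At 60 min 7 of 8 were higher than in glucose, where 32.3% of all tested genes were, and MDH2 was the exception. The median log2 change of the 8 genes was 2.05 at 15 min and 2.74 at 60 min, against -0.01 and -0.02 for all tested genes. The test fits condition and strain as additive terms, so the strains stand in for replicates. Its p-values do not measure the spread between cultures. Its error draws in part on how far the 2 strains move alike (2 residual degrees of freedom). The larger weight goes to a spread borrowed from other genes (13 prior degrees of freedom).

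FBP1 (YLR377C, chromosome XII, 873746 to 874792) encodes fructose-1,6-bisphosphatase, which reverses a step that the glycolytic enzyme cannot run backwards. It had 20, 39 and 61 counts in the spp1 deletion in glucose and at 15 and 60 min, which is 4.90, 24.7 and 50.1 CPM. The wild type had 14, 33 and 80 counts, or 5.45, 27.0 and 51.5 CPM. Both galactose times lay above glucose in both strains, and the strains' counting intervals overlapped at every time. FBP1 rose by 2.31 ± 0.32 log2 units at 15 min (edgeR adjusted p = 6.92e-06) and by 3.28 ± 0.28 at 60 min (adjusted p = 5.62e-08). Each ± in these results is the change over the root of the F statistic, a stand-in for the standard error that the fit does not report.

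ICL1 (YER065C, chromosome V, 285241 to 286914) encodes isocitrate lyase, the enzyme that opens the glyoxylate bypass. The spp1 deletion had 137, 195 and 150 counts in glucose and at 15 and 60 min, or 33.6, 123 and 123 CPM. The wild type had 109, 165 and 138 counts, or 42.5, 135 and 88.9 CPM. The level at 60 min was 0.998 times that at 15 min in the deletion (exact 95% counting interval 0.801 to 1.24) and 0.657 times in the wild type (0.521 to 0.829). The rise over glucose was 1.78 ± 0.19 log2 units at 15 min (edgeR adjusted p = 3.14e-07) and 1.48 ± 0.19 at 60 min (adjusted p = 4.87e-06).

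MLS1 (YNL117W, chromosome XIV, 406358 to 408022) encodes malate synthase, which completes the bypass by joining glyoxylate to acetyl-CoA. It was among the least transcribed of the 8 genes, with 22, 28 and 28 counts in the spp1 deletion (5.39, 17.7 and 23.0 CPM) in glucose and at 15 and 60 min. The wild type had 13, 10 and 22 counts (5.06, 8.20 and 14.2 CPM), so that its level at 15 min was not clear of that in glucose by counting error (1.62-fold, exact 95% interval 0.635 to 3.99). In the test across strains MLS1 rose by 1.35 ± 0.40 at 15 min (edgeR adjusted p = 6.83e-03) and by 1.85 ± 0.38 at 60 min (adjusted p = 5.04e-04). The call at 15 min was lost without the deletion library from glucose (0.84, adjusted p = 0.207) or from 15 min (0.89, adjusted p = 0.266), and adjusted p ranged from 1.53e-03 to 0.266 over 13 alternatives. A fit without a library leaves 1 library in that condition, which is assumed to vary like the other groups.

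MDH2 (YOL126C, chromosome XV, 81787 to 82920) encodes the cytosolic malate dehydrogenase that supplies oxaloacetate for gluconeogenesis. It had 2322, 1822 and 737 counts in the spp1 deletion (569, 1153 and 605 CPM) in glucose and at 15 and 60 min, and 1180, 1192 and 1001 counts in the wild type (460, 977 and 645 CPM). It was thus already high in glucose and highest at 15 min in both strains. At 60 min it was 1.06 times its glucose level in the deletion (exact 95% counting interval 0.977 to 1.16) and 1.40 times in the wild type (1.29 to 1.53). It rose by 1.05 ± 0.18 at 15 min (edgeR adjusted p = 5.44e-05), the smallest rise among the 8 genes in the test across strains. In the wild type alone it rose 2.12-fold, more than the 1.62-fold of MLS1 (exact 95% interval 0.635 to 3.99). At 60 min the change over glucose was 0.29 ± 0.18 (adjusted p = 0.157), and adjusted p ranged from 0.0217 to 0.648 over 14 alternatives. The lowest p came without the deletion library from 60 min (0.47), where the wild type is the only library at that time and its spread is borrowed from the other groups.

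IDP2 (YLR174W, chromosome XII, 504591 to 505829) encodes the cytosolic isocitrate dehydrogenase that makes NADPH and is known to be used on non-fermentable carbon. Its counts were 116, 157 and 258 in the spp1 deletion (28.4, 99.4 and 212 CPM) in glucose and at 15 and 60 min, and 73, 106 and 304 in the wild type (28.4, 86.9 and 196 CPM). Each step in time was a step up in both strains. IDP2 rose by 1.72 ± 0.16 at 15 min (edgeR adjusted p = 1.11e-07) and by 2.85 ± 0.15 at 60 min (adjusted p = 2.73e-10).

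SUC2 (YIL162W, chromosome IX, 37385 to 38983) had 192, 1465 and 919 counts in the spp1 deletion (47.1, 927 and 754 CPM) in glucose and at 15 and 60 min. In the wild type it had 112, 724 and 1682 counts (43.6, 593 and 1083.5 CPM). The deletion was highest at 15 min and the wild type at 60 min. Across both strains SUC2 rose by 4.06 ± 0.26 at 15 min (edgeR adjusted p = 7.23e-10) and by 4.35 ± 0.26 at 60 min (adjusted p = 8.19e-10), and at 60 min no other of the 8 genes rose as much.

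The activator gene ADR1 (YDR216W, chromosome IV, 895035 to 899006) encodes a zinc-finger protein that activates genes for ethanol, glycerol and fatty acid use. The spp1 deletion had 59, 358 and 98 counts in glucose and at 15 and 60 min (14.5, 227 and 80.4 CPM), and the wild type 41, 234 and 165 counts (16.0, 192 and 106 CPM). Both strains were highest at 15 min, with 60 min in between. ADR1 rose by 3.79 ± 0.19 at 15 min (edgeR adjusted p = 5.27e-11) and by 2.63 ± 0.21 at 60 min (adjusted p = 1.84e-08).

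SIP4 (YJL089W, chromosome X, 265926 to 268415) encodes a zinc-cluster activator that binds the carbon source-responsive element, and is itself known as a target of Cat8. It had 11, 64 and 27 counts in the spp1 deletion in glucose and at 15 and 60 min (2.70, 40.5 and 22.2 CPM), and 2, 42 and 22 counts in the wild type (0.779, 34.4 and 14.2 CPM). Both strains were again highest at 15 min. In the deletion 15 min exceeded glucose 15.0-fold (exact 95% counting interval 7.86 to 31.6), and in the wild type 44.2-fold, with an interval of 11.5 to 377 because of the 2 counts in glucose. Across strains SIP4 rose by 4.29 ± 0.39 at 15 min (edgeR adjusted p = 6.09e-08) and by 3.24 ± 0.45 at 60 min (adjusted p = 1.16e-05).

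**Figure D1:**
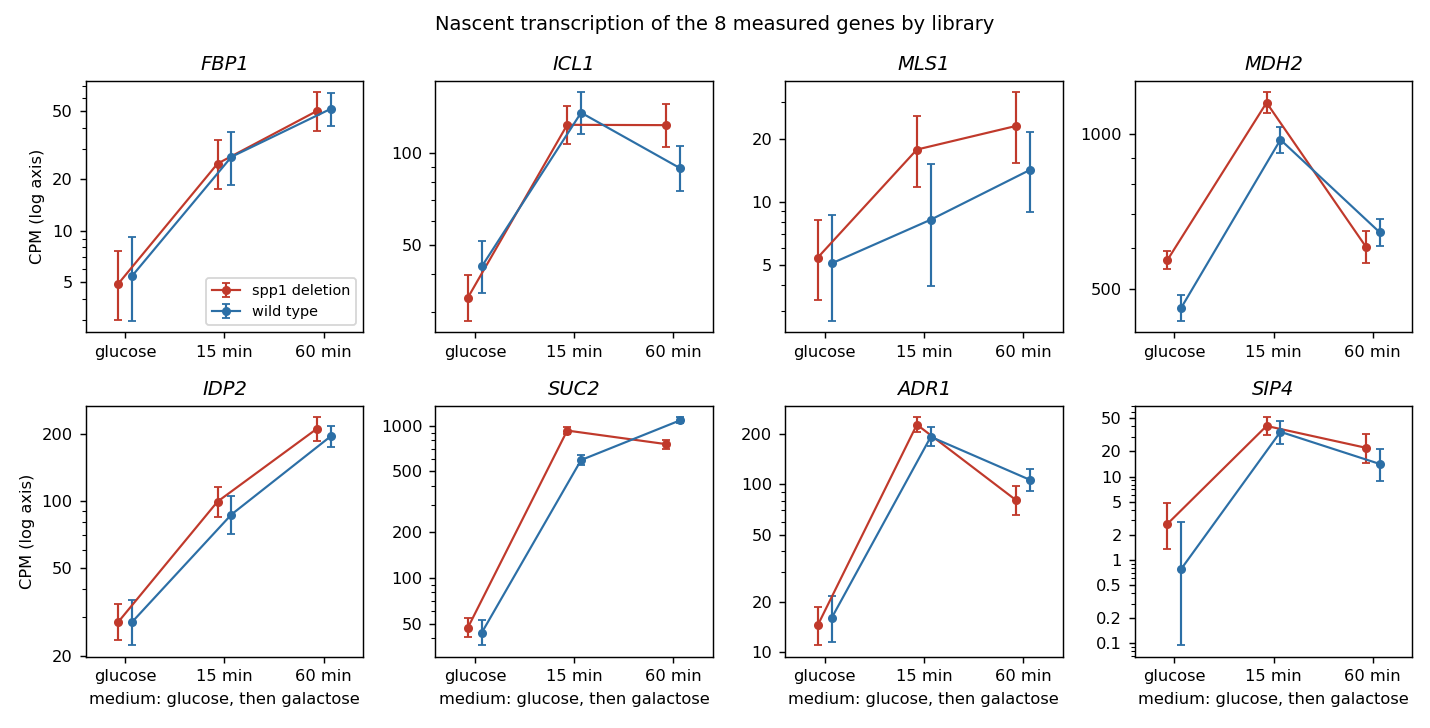
Level of each of the 8 genes in CPM (log axis, scale set per gene) in glucose and at 15 and 60 min in galactose, with the spp1 deletion in red and the wild type in blue; each point is 1 library and bars are exact 95% Poisson intervals of the count. FBP1 and IDP2 climb at every step in both strains, whereas MDH2, ADR1 and SIP4 are highest at 15 min.

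SIP4, SUC2 and ADR1 thus had the largest rises at 15 min, above those of 98.3%, 98.1% and 97.8% of all tested genes, and the enzyme genes the smaller ones, above those of 80.1% (MDH2) to 92.9% (FBP1). At 60 min SUC2, FBP1 and SIP4 led, above 98.9%, 97.8% and 97.7% of tested genes. The place of SIP4 changed with the fit. Without the wild-type library from glucose it stood at 2.87 at 60 min, beside 2.89 for IDP2. Without the deletion library from glucose it stood at 4.18, beside 3.23 for FBP1. At 15 min limma gave 3.91 for SIP4 and 4.00 for SUC2. Within single strains a 2-fold change was counted, with 2 counts added before the log. By this count 8 of 8 genes were higher at 15 min than in glucose in the spp1 deletion (19.9% of all genes) and 7 of 8 in the wild type (21.5%). At 60 min 7 of 8 were higher in the deletion (16.2% of all genes) and 7 of 8 in the wild type (15.5%). The wild-type count at 60 min was 5 with 10 counts added instead of 2.

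Between 15 and 60 min the genes separated. FBP1 and IDP2 rose further, MDH2, ADR1 and SIP4 fell, and ICL1, MLS1 and SUC2 did not pass the test, so 5 of 8 passed where 36.5% of all tested genes did (20.4% higher and 16.1% lower). IDP2 rose by 1.13 ± 0.14 log2 units (edgeR adjusted p = 2.69e-05) and FBP1 by 0.97 ± 0.25 (adjusted p = 6.90e-03). ADR1 fell by 1.16 ± 0.17 (adjusted p = 6.67e-05), SIP4 fell by 1.05 ± 0.31 (adjusted p = 0.0157) and MDH2 fell by 0.76 ± 0.18 (adjusted p = 3.26e-03). These changes of ADR1 and SIP4 lay above those of 2.37% and 2.87% of all tested genes, so few genes fell more. Past 2-fold within a strain were IDP2 (higher) and ADR1 (lower) in the spp1 deletion, as were 12.8% of all genes, and IDP2 (higher) and SIP4 (lower) in the wild type, as were 15.8%.

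The calls of IDP2, ADR1 and MDH2 held under every alternative run. FBP1 missed the threshold in DESeq2 (adjusted p = 0.0543) and without the deletion (0.0608) or wild-type (0.0543) library from 15 min, within a range of 2.40e-03 to 0.0608. SIP4 missed it in DESeq2 (0.0748), without the wild-type library from 15 min (0.226) or 60 min (0.0681) and at a threshold of 0.01, within a range of 0.0116 to 0.226. For SUC2 the fit gave 0.29 ± 0.22 (edgeR adjusted p = 0.336), a mean over strains whose levels differed in direction. It was 0.75 (adjusted p = 0.0187) without the deletion library from 15 min and 0.76 (adjusted p = 3.94e-04) without that from 60 min, but -0.16 and -0.20 without the wild-type libraries from 15 and 60 min, within a range of adjusted p of 3.94e-04 to 0.742. Each of these fits has a single library at the time concerned and takes its spread from the other groups, so its p is no check of that library. In the deletion the level at 60 min was 0.813 times that at 15 min (exact 95% counting interval 0.748 to 0.884), and in the wild type 1.83 times (1.67 to 2.00). For ICL1 it gave -0.30 ± 0.18 (adjusted p = 0.223), which became -0.65 (adjusted p = 0.0137, range 0.0137 to 0.910) without the deletion library from 60 min and 0.04 without the wild-type one, again with 1 library left at 60 min. For MLS1 it gave 0.50 ± 0.38 (adjusted p = 0.320), with 0.93 without the deletion library from 15 min and 0.26 without the wild-type one.

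**Figure D2:**
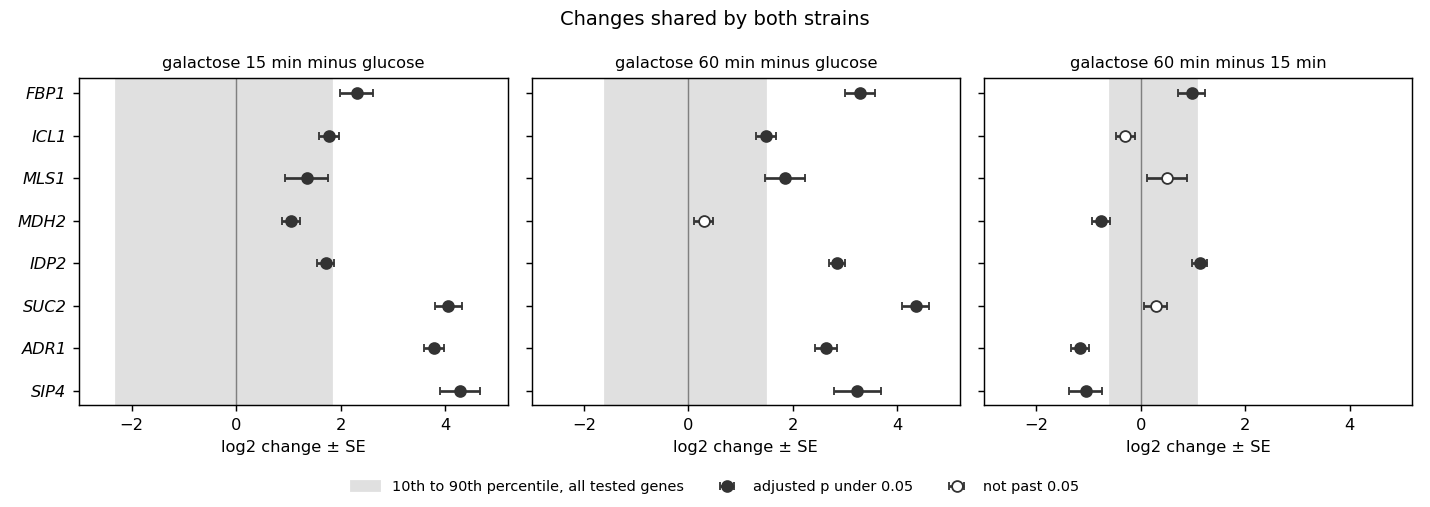
Log2 change of each gene across both strains at 15 min over glucose, 60 min over glucose and 60 min over 15 min (x axis, with the stand-in standard error as bars), over a grey band that spans the central 80% of all tested genes. Filled points passed an adjusted p of 0.05: all 8 genes at 15 min, 7 at 60 min, and 5 between the times, of which 2 lie to the right of 0 and 3 to the left.

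Levels of different genes were set side by side per kilobase of the full gene in the reference. The gene windows of the counting and the spread of reads along each gene are not known here. The order of genes of different length is therefore approximate. In glucose the spp1 deletion ranked MDH2 at 502 CPM per kb, then SUC2 at 29.4, IDP2 at 22.9, ICL1 at 20.1, FBP1 at 4.68, ADR1 at 3.64, MLS1 at 3.24 and SIP4 at 1.08. The wild type held the order MDH2 (405 CPM per kb), SUC2 (27.3), ICL1 (25.4), IDP2 (23.0), FBP1 (5.21), ADR1 (4.02), MLS1 (3.04) and SIP4 (0.313). MDH2 stood well apart, whereas SUC2, IDP2 and ICL1, like FBP1, ADR1 and MLS1, lay close to each other in both strains. In glucose MDH2 lay above 91.3% of tested genes in the deletion and above 89.1% in the wild type. Each of the other 7 genes lay above at most 16.2%. Percentages of genes per kilobase, here and in the next paragraph, leave out tested genes that have no length in the reference.

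At 60 min the order per kilobase was MDH2 (533), SUC2 (472), IDP2 (171), ICL1 (73.5), FBP1 (47.8), ADR1 (20.2), MLS1 (13.8) and SIP4 (8.90) in the deletion. In the wild type it was SUC2 (678), MDH2 (569), IDP2 (158), ICL1 (53.1), FBP1 (49.2), ADR1 (26.8), MLS1 (8.51) and SIP4 (5.69). SUC2 thus came level with MDH2, and IDP2 drew clear of ICL1. Even at their highest, MLS1 and SIP4 were low: MLS1 lay above at most 6.88% of tested genes and SIP4 above at most 11.02%, whereas SUC2 reached 91.4% in the deletion and 93.6% in the wild type. At 15 min ADR1 lay above 37.3% of tested genes in the deletion and 32.9% in the wild type, against 0.590% and 0.924% in glucose.

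The shape of the response was compared as log2 CPM centred on each gene's mean over the 6 libraries, as a description with no test. Among the 28 pairs of members, FBP1 and IDP2 were most alike (Euclidean distance 0.525, Pearson r 0.991), followed by the activator genes ADR1 and SIP4 (distance 1.16, r 0.961) and the glyoxylate genes ICL1 and MLS1 (distance 1.25, r 0.781). MDH2 and SUC2 were farthest apart (distance 4.17, r 0.663). All such correlations are over the same 6 libraries, which share the shift from glucose. Of genes outside the set, SUR1, SOM1, LAP3, YPR099C and CYC3 lay nearest to the mean profile of the 5 enzyme genes (distances 0.277 to 0.347). YAK1, ROQ1, TPS2, ATG42 and STB2 lay nearest to that of ADR1 and SIP4 (distances 0.258 to 0.374). YAK1, which encodes a protein kinase, had 202, 913 and 402 counts in the deletion and 94, 657 and 421 in the wild type, again highest at 15 min. TPS2, which encodes trehalose phosphatase, had 235, 1436 and 491 counts in the deletion and 132, 1012 and 626 in the wild type.

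The next comparison asked whether loss of SPP1 changed the transcription of these genes. None of the 8 genes passed the test for a difference between strains shared by the 3 conditions. The count was 0 of 8 in edgeR, 0 in limma and 0 in DESeq2. Of all tested genes 1.83% (95) passed edgeR's adjusted test, so 0 of 8 does not set these genes apart from the rest. Without adjustment 0 of 8 had an edgeR p under 0.05, a cut-off that was not counted over all genes. MLS1 differed by 0.64 ± 0.32 log2 units in the spp1 deletion over the wild type (edgeR adjusted p = 0.409) and SIP4 by 0.50 ± 0.29 (adjusted p = 0.496). Their order changed with the fit. Without the deletion library from 15 min MLS1 stood at 0.44 and SIP4 at 0.84, without the wild-type one from 15 min at 0.44 and 0.84, and in limma at 0.59 and 0.63. MDH2 (0.15 ± 0.14), IDP2 (0.11 ± 0.12), SUC2 (0.07 ± 0.19), ICL1 (0.00 ± 0.15), ADR1 (-0.05 ± 0.15) and FBP1 (-0.09 ± 0.23) were nearer to 0. The median of the 8 genes was 0.09, against 0.00 over all tested genes.

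In single conditions, with 1 library a side and no test, most differences between strains were within counting error. In glucose MDH2 alone had a counting interval of the ratio above 1, at 1.24-fold in the deletion over the wild type (exact 95% interval 1.15 to 1.33), and 7 intervals held 1. At 15 min 3 genes had an interval above 1. SUC2 was 1.56-fold higher in the deletion (1.43 to 1.71), MDH2 1.18-fold (1.10 to 1.27) and MLS1 2.16-fold, from 28 against 10 counts (1.02 to 4.99). At 60 min ICL1 was 1.38-fold the wild type's level (1.09 to 1.76), SUC2 0.696-fold (0.642 to 0.755) and ADR1 0.757-fold (0.583 to 0.977), and the other 5 intervals held 1. These intervals and all others on counts cover counting error only, and a difference between 2 cultures of 1 strain could pass them as well.

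Counted at 2-fold, 1 of 8 genes was past it in glucose (SIP4, with 11 counts in the deletion and 2 in the wild type), 1 of 8 at 15 min (MLS1) and 0 of 8 at 60 min. Among all tested genes 1.21%, 2.26% and 1.7% were past 2-fold in these conditions. FBP1 and IDP2 could not be told apart between strains by counting error at any time, with intervals of 0.685 to 1.37-fold for FBP1 and 0.912 to 1.28-fold for IDP2 at 60 min.

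**Figure D3:**
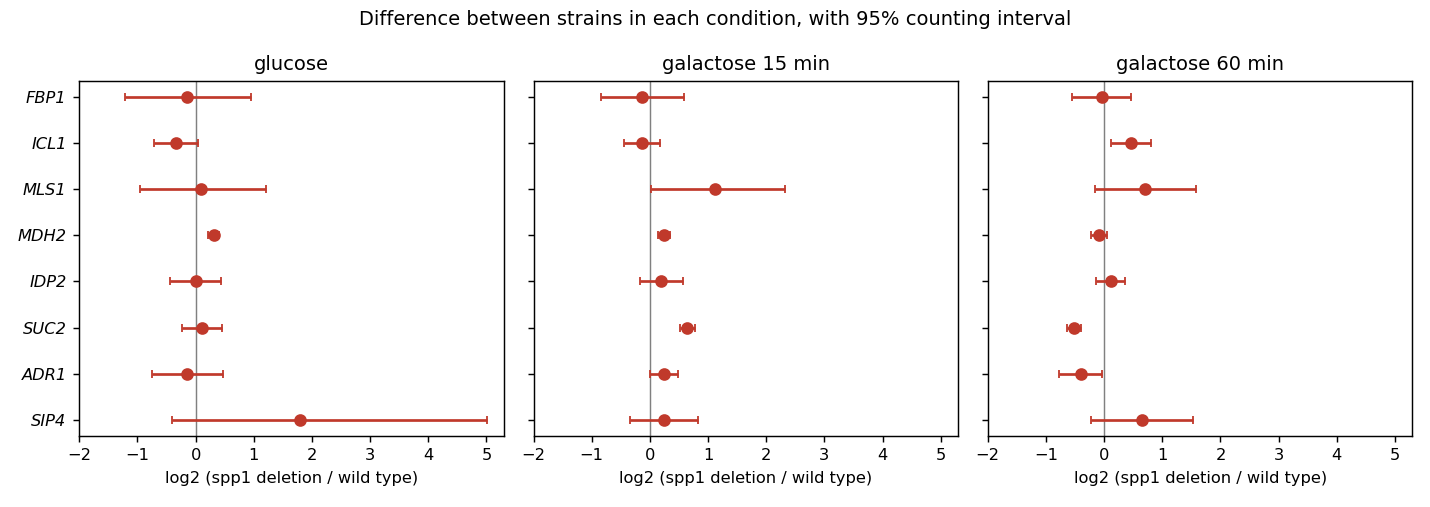
Log2 ratio of the spp1 deletion over the wild type for each gene in glucose and at 15 and 60 min (x axis), with exact 95% counting intervals as bars and 1 library per strain. SUC2 lies right of 0 at 15 min (0.64) and left of it at 60 min (-0.52), and the bars of FBP1 and IDP2 span 0 at every time.

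From 15 to 60 min the response itself differed most between strains for SUC2. Its log2 level changed by -0.30 in the spp1 deletion and by 0.87 in the wild type, a difference of -1.17 with a counting interval of -1.34 to -0.99. It was the one member whose difference in response passed 2-fold between these times, as 4.03% of all tested genes did. ADR1 also changed by more in the deletion, by -1.48 against -0.85 in the wild type (difference -0.64, interval -1.07 to -0.21), as did MDH2, by -0.93 against -0.60 (difference -0.33, interval -0.50 to -0.16). ICL1 went the other way, with 0.00 in the deletion against -0.60 in the wild type (difference 0.60, interval 0.15 to 1.04). For changes over glucose SUC2 did not lead. At 60 min ICL1 differed by 0.80 (interval 0.30 to 1.29) and SUC2 by -0.63 (-0.98 to -0.27). At 15 min MLS1 differed by 0.95 and SIP4 by -0.83, both with intervals that held 0, and SUC2 by 0.54 (0.18 to 0.90). With 1 library per strain and time none of these differences could be tested against the spread between cultures.

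Other genes of the same pathways were taken from lists of enzymes, targets and regulators. Their counts are to be read against all tested genes, of which 37.1% rose and 38% fell at 15 min, and 32.3% rose and 33.9% fell at 60 min. Of 20 further enzyme and carrier genes for gluconeogenesis, the glyoxylate cycle and acetyl unit supply, 12 were tested: 10 rose and 2 fell at 15 min, and 9 rose and 1 fell at 60 min (median log2 change 1.95 and 1.498). The other 8, among them PCK1 for phosphoenolpyruvate carboxykinase, were not analysed here, so these counts speak for the 12 alone. The carnitine carrier gene CRC1 rose by 3.98 ± 0.38 at 15 min and 4.42 ± 0.37 at 60 min (edgeR adjusted p = 1.28e-07 and 3.45e-08), and the carnitine acetyltransferase gene YAT2 by 2.89 ± 0.27 and 2.77 ± 0.27 (adjusted p = 9.20e-08 and 2.56e-07). PYC1, for pyruvate carboxylase, which makes oxaloacetate in the cytosol, rose by 3.20 ± 0.20 and 2.41 ± 0.20 (adjusted p = 8.44e-10 and 3.44e-08). MAE1, for mitochondrial malic enzyme, fell by 4.00 ± 0.17 and by 3.76 ± 0.16 (adjusted p = 1.20e-11 and 5.25e-11).

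Paralogs of MDH2 and IDP2 rose at both times, whereas MDH2 itself did not pass the test at 60 min. MDH3, the peroxisomal malate dehydrogenase gene, rose by 2.29 ± 0.16 at 15 min and stayed 2.06 ± 0.16 above glucose at 60 min (edgeR adjusted p = 2.78e-09 and 1.77e-08). MDH1, the mitochondrial one, rose by 2.23 ± 0.26 and 1.51 ± 0.28 (adjusted p = 1.15e-06 and 2.09e-04). IDP3, the peroxisomal isocitrate dehydrogenase gene, rose by 1.68 ± 0.17 and 2.19 ± 0.16 (adjusted p = 1.96e-07 and 1.02e-08), and IDP1, the mitochondrial one, by 1.32 ± 0.14 and 0.71 ± 0.14 (adjusted p = 2.72e-07 and 3.14e-04). How reads shared by such similar genes were counted is not given in the sources used here. MDH1, MAE1 and the kinase gene ELM1 of a list below lie in the part of chromosome XI that runs rightwards from MTC2, a stretch whose start was chosen by eye from these data, where W-strand genes had a median level 1.64 log2 units below C-strand genes (81 genes each), and their values are uncertain. None of the 8 members lies there.

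Of 13 genes known as targets of Adr1, 6 were tested: 5 rose at 15 min and all 6 at 60 min (median 2.83 and 3.38). The other 7 were not analysed here, so these counts speak for the 6 alone. ALD4, for mitochondrial aldehyde dehydrogenase, rose by 6.47 ± 0.26 and 6.23 ± 0.26 (edgeR adjusted p = 8.72e-12 and 3.67e-11). The glycerol genes GUT2 (4.30 and 3.76) and GUT1 (2.59 and 2.76) and the citrate synthase gene CIT3 (3.06 and 4.50) rose at both times as well. ADH2, for the alcohol dehydrogenase that consumes ethanol and named here after its values were seen, was the exception at 15 min (0.44 ± 0.21, adjusted p = 0.0655). It had 151, 69 and 416 counts in the deletion and 110, 80 and 450 in the wild type, and rose by 2.99 ± 0.17 at 60 min (adjusted p = 5.07e-10).

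Among 6 other activators of genes for growth without fermentable sugar, 4 rose and 1 fell at 15 min, and 3 rose and 1 fell at 60 min (median 0.82 and 0.39), against 37.1% and 38% of all tested genes at 15 min and 32.3% and 33.9% at 60 min. GSM1 rose by 3.81 ± 0.18 and 2.77 ± 0.19 (edgeR adjusted p = 2.97e-11 and 5.05e-09), and like ADR1 and SIP4 it fell between the times, by 1.04 ± 0.15 (adjusted p = 9.30e-05). HAP4, for the activating subunit of the respiratory HAP complex, rose by 2.15 and 2.11, PIP2, an activator of peroxisomal genes, by 1.17 and 0.81, and ERT1 fell by 1.57 and by 1.19.

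Of 15 genes for the Snf1 kinase, its regulators and the repressors downstream, 9 rose and 3 fell at 15 min, and 8 rose and 4 fell at 60 min (median 0.63 and 0.37), beside the same shares of 37.1% and 38%, and of 32.3% and 33.9%, among all tested genes. MIG1, for the main repressor of SUC2, rose by 2.47 ± 0.16 and 2.52 ± 0.17 (edgeR adjusted p = 1.45e-09 and 2.41e-09), and NRG1, another repressor gene, by 1.92 and 2.18. MIG3, for a relative of Mig1, fell by 0.63 ± 0.21 and by 3.37 ± 0.30 (adjusted p = 0.0140 and 9.24e-08), and SIP2, for a subunit of the Snf1 kinase complex, rose by 1.41 and 1.42. SNF1 itself rose by 0.63 ± 0.15 at 15 min (adjusted p = 1.42e-03) and stood at 0.00 ± 0.16 at 60 min (adjusted p = 0.987).

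The GID ubiquitin ligase degrades Fbp1, Icl1, Mdh2 and Pck1 when glucose returns. All 9 tested genes of 10 for its subunits, adaptors and conjugating enzyme rose at both times (median 2.61 and 1.82), and 8 of 9 fell between them, as did 16.1% of all tested genes, with VID24 the exception. The adaptor gene GID11 rose by 6.86 ± 0.24 and 5.61 ± 0.24 (edgeR adjusted p = 3.74e-12 and 3.79e-11), with 34, 1166 and 409 counts in the deletion and 9, 880 and 439 in the wild type. UBC8, the ubiquitin-conjugating enzyme gene, rose by 3.24 and 2.63, RMD5 by 2.65 and 2.05 and GID8 by 2.80 and 1.82. Between strains, the genes of these lists that passed were the Adr1 target CIT3, higher in the deletion by 0.88 ± 0.18 (edgeR adjusted p = 0.0143), and the repressor gene NRG2, higher by 1.26 ± 0.15 (adjusted p = 3.11e-04). They were 1 of 6 tested Adr1 targets and 1 of 15 genes of the Snf1 and repressor list, where 1.83% of all tested genes passed. Neither call was followed under the alternatives, which were read for the 8 members only.

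**Figure D4:**
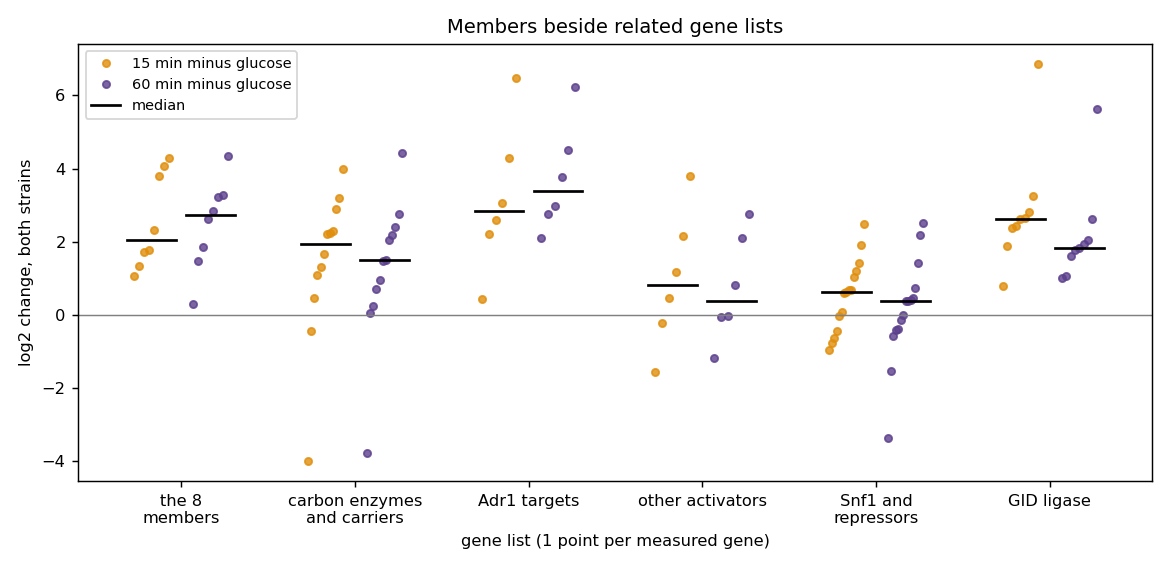
Log2 change over glucose across both strains at 15 min (orange) and 60 min (purple) for the 8 members and the measured genes of 5 related lists, with 1 point per gene and a black line at each median. The members' medians are 2.05 and 2.74, and those of the GID ligase genes 2.61 and 1.82.

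The strand setting of the counting is not given in the sources used here, so the nearest tested genes on each side were examined. None of the 8 members overlaps another gene of the reference. The genes beside MDH2, the ribosomal protein gene RPL25 and the tRNA methyltransferase gene TRM13, fell by 2.79 and by 2.64 at 15 min (edgeR adjusted p = 8.85e-10 and 2.23e-10) while MDH2 rose. CBF5, 304 bp beyond IDP2, fell by 4.32 (adjusted p = 5.34e-11) while IDP2 rose. Of the 16 neighbours RRT13, 3327 bp from ICL1, rose most at 15 min (2.48, adjusted p = 7.97e-07), and the others changed by at most 0.65 upwards.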

How the data were processed

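The authors deposited read counts per gene as whole numbers, and these entered the fits unchanged; the submitters' processing notes name Bowtie and sacCer3, with no version. Counting tool, gene windows and strand setting: not given in the sources used here. Names and positions came from a RefSeq table of assembly R64, the assembly of sacCer3, which held 5116 of 5219 identifiers, and 3 lines of the table were emptied for this work. The 33 genes under a mean count of 10 were not tested. With TMM scaling, the quasi-likelihood method of edgeR 4.0.16 (R 4.3.3) fitted condition and strain additively over 6 libraries, leaving 2 residual degrees of freedom, with Benjamini-Hochberg adjustment at 0.05 over 5186 genes. Single pairs carry no test: 2-fold was counted on log2 CPM (prior count 2), and intervals are exact at 95% (binomial or Poisson, on counts alone). Intervals on differences in response are normal approximations from counts.

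The members and 5 lists were chosen with earlier results of these data known. Named were all members, paralogs of MDH2 and IDP2, up to 4 genes per list with the largest absolute mean of both changes, and the 5 genes nearest each mean profile; ADH2, SNF1, NRG2, ELM1, VID24 and neighbours were named after values were seen. Alternatives were other scalings and filters, DESeq2 1.42.0, limma 3.58.1, a threshold of 0.01, prior counts and leaving out libraries or conditions. Fits were tested on simulated counts. Figures used matplotlib 3.10.9.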

Additional observations from a re-analysis of the deposited data

Results flagged for a closer look

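In 7 comparisons the difference between strains had opposite signs in 2 conditions, with a counting interval of the difference that left out 0. The search covered each of the 8 members and each change between conditions. All 7 came from SUC2, ICL1, MDH2 and ADR1, and comparisons of 1 gene share libraries. How many of all tested genes meet the same rule was not counted, so the number does not set the members apart. None of these differences was tested, since each strain has 1 library per condition. For SUC2 the log2 difference of the spp1 deletion minus the wild type was -0.52 at 60 min and 0.64 at 15 min, so that the change from 15 to 60 min differed by -1.165. Against glucose, where the difference was 0.11, the change of SUC2 to 60 min differed by -0.629. For ADR1 the differences were -0.40 at 60 min and 0.24 at 15 min (change differing by -0.637). For ICL1 they were 0.47 at 60 min, -0.13 at 15 min and -0.33 in glucose (changes to 60 min differing by 0.596 from 15 min and 0.795 from glucose). For MDH2 they were -0.09 at 60 min, 0.24 at 15 min and 0.31 in glucose (changes to 60 min differing by -0.331 from 15 min and -0.400 from glucose). Some of these strain differences have intervals of their own that hold 0, such as those of MDH2 at 60 min and ICL1 at 15 min and in glucose.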

How the results depend on the processing

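The number of members called at 15 and 60 min over glucose was 7 to 8 and 7 to 8 when each library was left out, and 8 and 7 with RLE, total or median scaling, without the count filter, in DESeq2 and limma and at a threshold of 0.01. Between the times the count was 3 to 7 when each library was left out, against 5 in all: 3 without the wild-type library from 15 min and 7 without the deletion library from 60 min. It was 3 in DESeq2 (1 higher, 2 lower). A minimum mean count of 50 left out FBP1, MLS1 and SIP4 and gave 5 called at 15 min, 4 at 60 min and 3 between the times. Between strains 0 members passed under each alternative run. The 2-fold counts between strains became 0 in glucose and 0 at 15 min with a prior count of 10, and 0 at 15 min with library totals, which also gave 4 members past 2-fold between the times in the wild type, against 2. Over glucose, a prior count of 10 gave 5 members past 2-fold at 60 min in the wild type, against 7. Library totals gave 7 at 15 min in the deletion, against 8.

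Changes of sign were all of values that had not passed. Between the times SUC2 ran from -0.20 to 0.76 (-0.155 without the wild-type library from 15 min and -0.202 without that from 60 min; 0.747 and 0.760, past the threshold, without the deletion library from 15 or 60 min). ICL1 was 0.0414 without the wild-type library from 60 min and -0.653, past the threshold, without the deletion library from 60 min. Between strains ICL1 was -0.0292 with library totals, -0.225 without either library from 60 min and -0.225 without that condition, and at most 0.149 when a single library was left out and 0.150 without glucose. SUC2 was -0.257 and -0.253 without the deletion or wild-type library from 15 min and -0.250 without that condition, and at most 0.440 when a single library was left out and 0.441 without 60 min, and ADR1 was 0.134, 0.134 and 0.132 without the deletion library, the wild-type library or both from 60 min, against -0.314 at least (without the deletion library from 15 min). Fits without a library take the spread of the one left in that condition from the other groups. Over all genes, 95 passed between strains, with 50 in DESeq2, 46 at a threshold of 0.01, 53 to 197 when a library was left out, and 62, 200 and 172 without glucose, 15 min or 60 min. The additive fit matched the libraries by strain and by condition. No pairing by replicate was possible, because the labels carry no replicate numbers and each group has 1 library. Depth limits MLS1, FBP1 and SIP4, whose counts per library ran from 2 to 80.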

Other observations

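Of the 15 genes of the Snf1 and repressor list, 1 passed the test between strains, where 1.83% of all tested genes did. That gene was NRG2, which encodes a repressor that acts with the Snf1 pathway on glucose-repressed genes. The alternatives were read for the members only, so the call of NRG2 was not followed under them. NRG2 was also named after its values were seen. It had 606, 151 and 256 counts in the spp1 deletion in glucose and at 15 and 60 min, and 186, 28 and 149 counts in the wild type, and was higher in the deletion by 1.26 ± 0.15 log2 units (edgeR adjusted p = 3.11e-04). NRG2 was lower at 15 min than in glucose (fell by 0.94 ± 0.20, adjusted p = 4.26e-04) and higher at 60 min than at 15 min (1.41 ± 0.20, adjusted p = 7.04e-05). Its paralog NRG1 had 67, 113 and 126 counts in the deletion and 85, 135 and 175 in the wild type, a difference of -0.54 ± 0.16 that did not pass the edgeR test (adjusted p = 0.122).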
